A study of Homo sapiens with 2 samples.

Results

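The genes described here encode the DNA polymerases that copy the nuclear genome, together with primase, in PC-3 cells given the liverwort compound RD (riccardin D). PC-3 is an established human cell line that came from an androgen-independent prostate cancer. The members are 10 genes, namely POLA1, POLA2, PRIM1 and PRIM2 of DNA polymerase alpha-primase, POLD1, POLD2 and POLD3 of DNA polymerase delta, and POLE, POLE2 and POLE3 of DNA polymerase epsilon. They were taken by gene symbol, as every probe set that the platform annotation pairs with that symbol alone, which gave 13 probe sets of 54613 and 10 genes of 19775. A probe set is a group of short oligonucleotides on the array that reads the transcript of a gene. RD-treated cells received 10 µmol/L RD for 24 h and the control cells received the DMSO vehicle, with 1 Affymetrix HG-U133 Plus 2.0 array per condition. The dose comes from the title of the study's supplementary table of expression changes, because the sample labels give none, and only the treatment protocol names the vehicle, since the source name of the control array reads as cells given no treatment.

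DNA polymerase alpha-primase starts every new DNA strand with a short RNA-DNA primer. DNA polymerase epsilon then extends the leading strand and DNA polymerase delta extends the lagging strand, each with a proofreading exonuclease in its catalytic subunit. Each of these enzymes has a catalytic subunit (POLA1, POLD1 and POLE) and a B subunit (POLA2, POLD2 and POLE2) that holds the complex together. Many genes of this machinery are transcribed mainly in cells that enter S phase.

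All values are MAS5 signals, which are array intensities on a linear scale, and differences are RD minus control on the log2 scale. A gene was called lower when its RD signal was at least 2-fold below its control signal and the brighter of these reached the floor, set at 66.9, the median over the signals of both arrays. Neither array was replicated, so that no p-value is given and every comparison is between these 2 arrays. The only measurable error is the scatter between probe sets of 1 gene, which holds no variation between repeat cultures or arrays. Its SD on the log2 scale was 0.34 over 8576 probe sets whose brighter signal reached 377.4, the 75th percentile. Over 18518 probe sets whose brighter signal reached the floor, the SD was 0.76. The control signals of all 10 members, by their brightest probe sets, reached 377.4, but the RD signals of POLA2, POLD1, POLE and POLE2 did not. The arrays had been scaled alike, since the means without the top and bottom 2% of signals were 495.9 for RD and 495.8 for control. The median signals were 67.8 for RD and 65.9 for control. Of the epithelial markers, KRT18 had a signal of 15416.6 on the RD array and 10224.2 on the control array. KRT8 was above the floor but dim, with 159.3 in RD and 113.8 in control, and KRT19, EPCAM and CDH1 were under the floor on both. Of 5 markers of leukocytes, endothelium and fibroblasts, PTPRC, CDH5 and COL1A2 were under the floor on both arrays, and PECAM1 and DCN lay between 72.7 and 121.6. KLK3, a gene of the androgen axis, had a signal of 230.6 in RD and 131.4 in control by the brightest of its 3 probe sets. KLK2 and TMPRSS2 were under the floor. The probe sets used for KLK3, KRT8, KRT18 and DCN carry a name suffix that marks probes which can match other transcripts.

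In RD-treated cells the signals of all 10 polymerase and primase genes were below those of control cells, and this held for each of their 13 probe sets. With each gene read by its brightest probe set, 6 of the 10 were called lower (POLA1, POLA2, PRIM1, POLD1, POLE and POLE2), none was called higher, and PRIM2, POLD2, POLD3 and POLE3 differed by less than 2-fold. The median log2 difference was -1.12, which is 46.1% of the control signal. Over all 12818 genes at or above the floor, 13.3% were called lower and the median log2 difference was -0.0022. Over the 8094 genes that reached 377.4, called the bright genes here, 10.9% were called lower and the median was 0.0049. At a threshold of 1.5-fold, 9 of the 10 members were lower, against 23.0% of these 8094 genes. An array of a whole culture does not tell a smaller number of cells in S phase apart from less transcript in each cell.

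**Figure D1:**
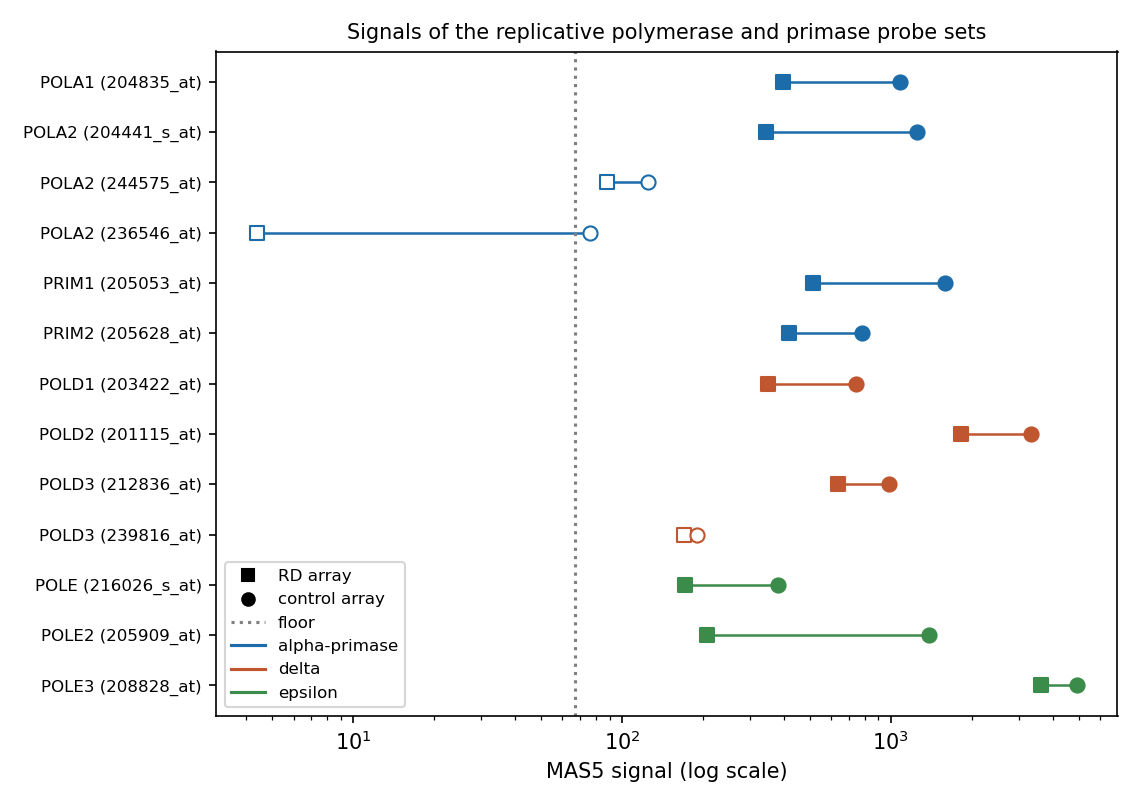
MAS5 signal (log scale) of each of the 13 probe sets of the polymerase and primase genes on the RD array (squares) and on the control array (circles), joined by a line, with the complexes in colour. Filled symbols show the brightest probe set for each gene and open symbols show the rest, with a dotted line at the floor (66.9). Every square lies to the left of its circle, and only the RD signal of 1 dim POLA2 probe set (4.4) lies under the floor.

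Of the alpha-primase genes, 3 of 4 were called lower, and their median log2 difference was -1.54. POLA2, the B subunit, had a signal of 344.3 in RD and 1252.4 in control, a 3.64-fold lower signal. Its other 2 probe sets were dim. The brighter of these had 88 in RD and 125.5 in control, a log2 difference of -0.51, and the dimmer had 4.4 in RD and 76.4 in control. This last RD signal lies under the floor, so the difference is at least 1.14-fold. The size of the POLA2 difference thus rests on the brightest probe set, whose name suffix marks probes that can match other transcripts.

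PRIM1, the catalytic primase subunit that makes the RNA primer, had a signal of 514.5 in RD and 1587.1 in control and was 3.08-fold lower. POLA1, the catalytic polymerase subunit that extends this primer with DNA, had 396 in RD and 1082.2 in control and was 2.73-fold lower. These 3 genes, POLA2, PRIM1 and POLA1, lay between -1.86 and -1.45 on the log2 scale, 0.41 apart and so within the SD of 0.48 that the scatter between probe sets gives a difference between 2 genes (0.34 times the square root of 2). PRIM2, the large primase subunit that carries an iron-sulfur cluster, had 419.8 in RD and 780.6 in control, 53.8% of control, and was not called. PRIM1 and PRIM2 lay 0.73 apart on the log2 scale, 1.51 times this SD, and the difference between them was not tested. A further 4 probe sets are annotated to a member together with another gene and were not used. Whether the PRIM2 probe set also reads another gene was not tested.

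The delta genes differed less from control. Their median log2 difference was -0.86 over 3 genes, and only POLD1 was called. POLD1, the catalytic subunit with the proofreading exonuclease, had a signal of 349.5 in RD and 740.3 in control (2.12-fold lower). POLD2, the B subunit, had 1826.8 in RD and 3314.4 in control, which is 55.1% of control. POLD3, the subunit that binds the sliding clamp PCNA, had 637.9 in RD and 986 in control (64.7%). Its dimmer probe set had 170.6 in RD and 190.4 in control, so that this gene had the smallest relative difference of the delta genes by either probe set. POLD2 and POLD3 are also subunits of the translesion enzyme DNA polymerase zeta, whose catalytic subunit REV3L had 1203.1 in RD and 1177.7 in control, and whose subunit MAD2L2 had 1208.9 in RD and 1965.6 in control.

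The epsilon genes spanned the whole range of the members. POLE2, the B subunit, had a signal of 207.3 in RD and 1393.1 in control, which is 6.72-fold lower and the largest fold difference among the 10 genes. Of the 8094 bright genes, 36 (0.445%) had a log2 difference as low as that of POLE2. POLE, the catalytic subunit, had 171.1 in RD and 380.1 in control (2.22-fold lower), read by 1 probe set with a shared-sequence suffix. POLE3, a small histone-fold subunit, had 3627.1 in RD and 4912.8 in control, or 73.8% of control, and 2313 of the bright genes (28.6%) were as low. The log2 differences of POLE2 and POLE3, subunits of the same enzyme, lay 2.31 apart, and those of POLE2 and POLE lay 1.60 apart. The SD for a difference between genes was 0.48, but it comes from probe sets whose brighter signal reached the limit for bright genes. POLE2 and POLE reached that limit in control only, with RD signals of 207.3 and 171.1. Over all probe sets that reached the floor, the SD between probe sets of the same gene was 0.76 instead of 0.34. The value of 0.48 may thus understate the scatter in both comparisons. The range within a complex was 0.97 for alpha-primase and 0.45 for delta.

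POLE3 works with POLE4 in the polymerase and with CHRAC1 in a chromatin remodelling complex that also holds SMARCA5 and BAZ1A. POLE4 had 1138.1 in RD and 2718.9 in control and was called lower, at 41.9% of control. CHRAC1 had 595.4 in RD and 508.1 in control, BAZ1A had 938.3 in RD and 1054.7 in control, and SMARCA5 had 3599.1 in RD and 2242 in control, so none of the 3 chromatin partners was called in either direction. The small delta subunit POLD4 had 402.8 in RD and 497 in control, or 81.0% of control.

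Set side by side, the medians of the complexes were -1.54 for alpha-primase, -1.15 for epsilon and -0.86 for delta. The alpha-primase and delta medians lay 0.68 apart, the alpha-primase and epsilon medians 0.39 apart, and the delta and epsilon medians 0.29 apart. With probe sets of shared sequence left out, the epsilon median (-1.59) was below that of alpha-primase (-1.17), so the order of these depends on the probe sets used. No test between complexes is possible, and the groups overlap, since PRIM2 (-0.89) lay above POLD1 (-1.08) and both POLE2 and POLE3 lay outside the range of the other members. Ordered by role, the catalytic subunits were close together, with POLA1 at -1.45, POLE at -1.15 and POLD1 at -1.08, all called lower and differing among themselves by less than the SD of 0.48. The B subunits were spread more widely, with POLE2 at -2.75, POLA2 at -1.86 and POLD2 at -0.86. POLD3 and POLE3 were the members with the smallest differences. The line at 2-fold separates POLE and POLD1, just past it, from PRIM2 and POLD2 at 1.86-fold and 1.81-fold lower, and POLD1 and PRIM2 lay 0.19 apart, less than the SD of 0.48.

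**Figure D2:**
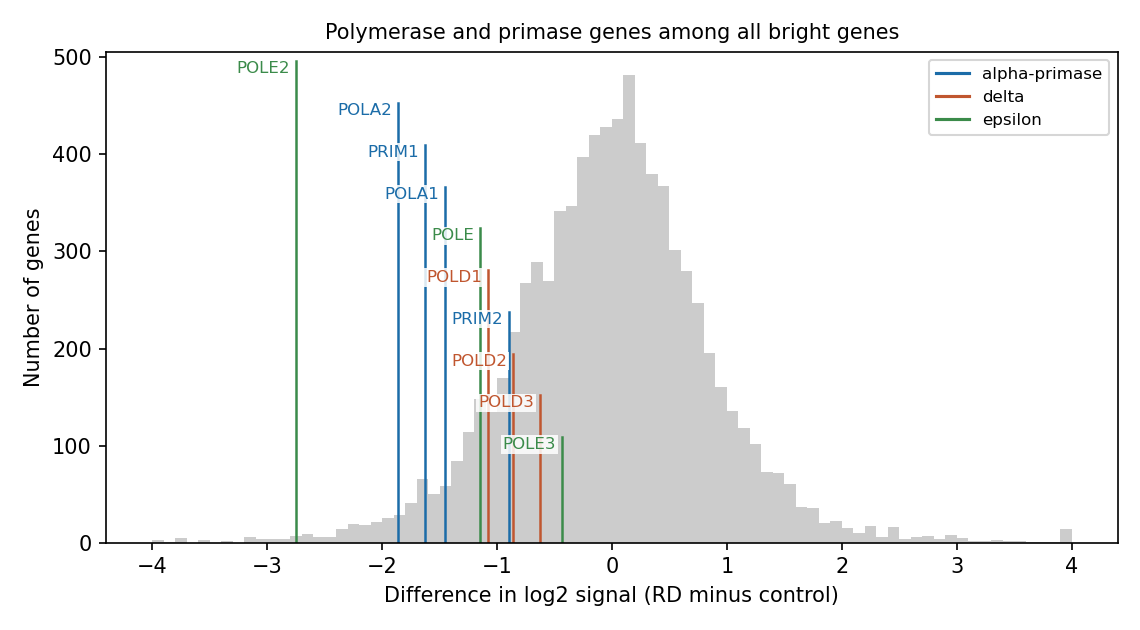
Number of genes (vertical) by difference in log2 signal, RD minus control (horizontal), for the 8094 bright genes, with values beyond 4 in either direction drawn at the edge. Coloured lines mark the 10 polymerase and primase genes by complex, all to the left of 0, from POLE2 at -2.75 to POLE3 at -0.44.

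The other genes of the replication fork were mostly lower as well. Over 5 lists with 40 genes, 27 were called lower and 1 higher, where the rule called 13.3% of the 12818 genes at the floor lower and 12.1% higher. The median log2 difference of the 40 was -1.48 (-1.43 with CLSPN, whose RD signal was under the floor, at its bound), beside -1.12 for the polymerase and primase genes. Of 16 genes of the helicase and of origin firing, 13 were lower and the median was -1.67. The lowest were GINS2, a helicase subunit, at 8.73% of control and MCM10, which helps to start the helicase and binds DNA polymerase alpha, at 11.0%. At the other end were TOPBP1 at 57.6% and DBF4, the activator of the CDC7 kinase, at 63.1%. Of 4 genes that tie polymerases to the helicase or protect the fork, 3 were lower. WDHD1, which links DNA polymerase alpha to the helicase, had 170.9 in RD and 448.4 in control (38.1%), CLSPN was lower by at least 2.28-fold with an RD signal under the floor, TIMELESS was at 41.0%, and TIPIN was at 58.2% and was not called.

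Of 12 genes for the clamp, its loaders and single-strand binding, 6 were lower, 1 was higher and the median was -1.16. The shares over all genes at the floor were 13.3% lower and 12.1% higher. PCNA, the clamp that holds DNA polymerase delta on DNA, had 3956.5 in RD and 15458.4 in control (25.6%), and DSCC1, a part of an alternative clamp loader, was at 22.3%. The only one of the 40 genes called higher was RFC1, the large subunit of the main clamp loader, with 4585.3 in RD and 1960.9 in control (2.34-fold higher). A second RFC1 probe set had 3466.8 in RD and 1755 in control, both of these carry a shared-sequence suffix, and the third was under the floor on both arrays. CHTF18 was at 79.0% of control. Among the other fork genes named, the probe sets of GINS2, MCM10, DBF4, WDHD1, TIMELESS, DSCC1 and CHTF18 also carry a shared-sequence suffix. Of 6 genes that join Okazaki fragments, the short pieces of the lagging strand, 4 were lower and the median was -1.46, with LIG1 (the ligase) at 16.4% and RNASEH2A at 27.7%, and with RNASEH2B at 52.3% and RNASEH2C at 55.3%.

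DNA polymerases outside the replication fork had signals on both sides of control. Of 14 such genes for repair, translesion and mitochondrial synthesis, 13 reached the floor, of which 6 had a lower and 7 a higher signal in RD, and the median was 0.03. POLQ and POLM were called lower and POLI higher, where the 2-fold rule called 13.3% of the 12818 genes at the floor lower and 12.1% higher. POLQ, the polymerase of theta-mediated end joining, had 179 in RD and 568.5 in control (31.5%), and POLM had a control signal of 73, close to the floor, and an RD signal under it, so that its measured bound is only at least 1.09-fold lower. POLI, a translesion polymerase, had 1079.6 in RD and 479.6 in control (2.25-fold higher), and POLG, the mitochondrial polymerase, was at 1.87 times its control signal. The 10 replicative genes had log2 differences from -2.75 to -0.44 and the 12 of these genes with both signals at the floor or above from -1.67 to 1.17, so the ranges overlapped, and the difference between the lists was not tested.

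**Figure D3:**
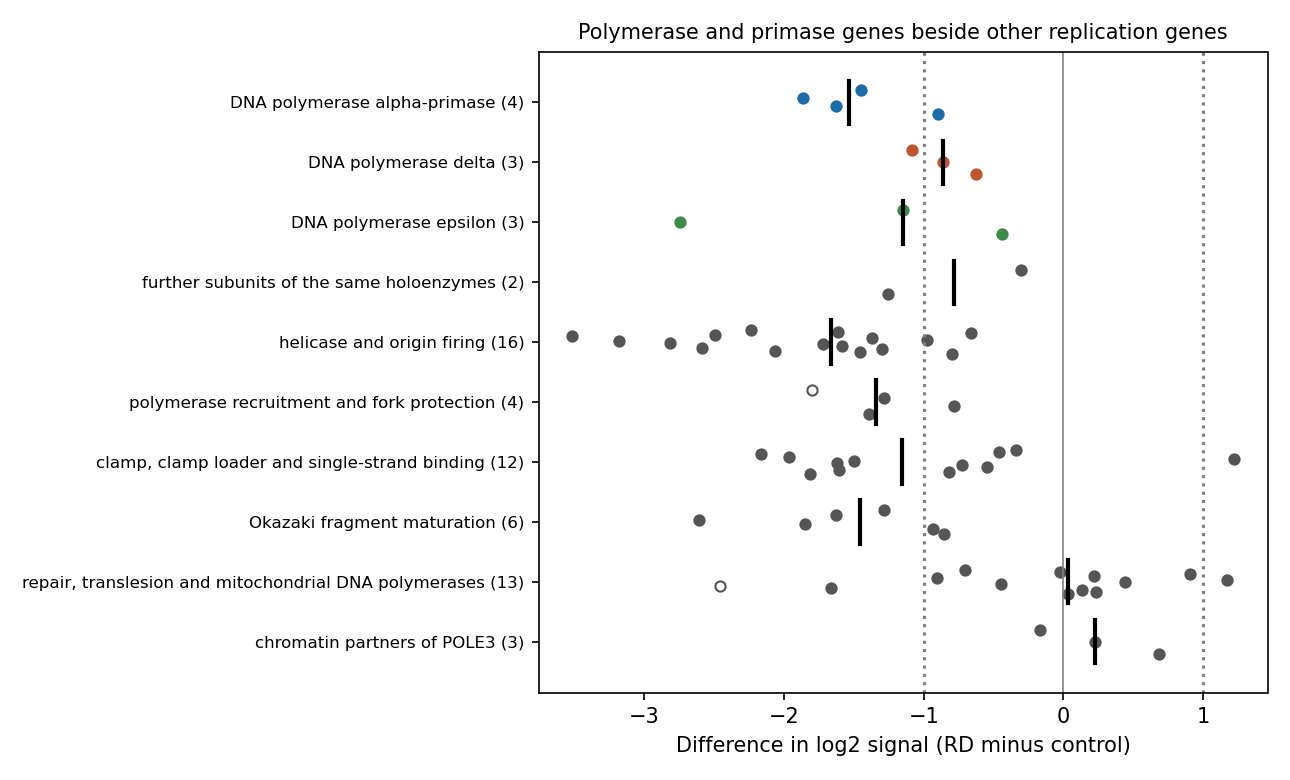
Difference in log2 signal (RD minus control) for genes that reached the floor, in the 3 polymerase complexes (coloured) and other lists (grey), and the gene number of each list beside its name. Medians are drawn as vertical bars, 2-fold is marked by dotted lines, and open circles had an RD signal under the floor, so that the difference drawn there is no bound. The complexes (medians -1.54, -0.86 and -1.15) lie left of 0, as do all fork genes but RFC1, while the repair, translesion and mitochondrial polymerases (median 0.03) lie on both sides.

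The promoters of the members are shown for the letters of factors known to act on cell cycle genes. E2F factors switch on genes of S phase, NF-Y binds CCAAT, the CHR element marks genes of G2 and mitosis, and GC boxes are common in promoters without a TATA box. Windows from 250 bases before to 50 bases after the annotated start were taken from RefSeq (GRCh38.p14) and held 13 starts of 9 of the 10 members, all but POLD3. TTTCCCGC and TTTGGCGC (E2F type), CCAAT (NF-Y), TTTGAA (CHR) and GGGCGG (GC box) were searched on both strands. TTTGGCGC was found in 3 of the 9 genes, POLA1, POLE and POLE2, each time on the reverse strand, and is held by 0.652% of all 35116 windows and 0.795% of 27305 genes. TTTCCCGC was in none of the 13 member windows and is in 1.63% of all windows. The shares over all windows and genes are not matched for base composition, and the windows of POLA1, POLE and POLE2 held 69.3%, 73.7% and 69.0% G and C. The windows of these 3 genes and of POLA2, which was the second lowest gene and held none of the searched letters, are printed on the strand of the gene, with the E2F type letters, read as the reverse complement, in capitals.
POLE2, chr14:49688165-49688464, reverse strand: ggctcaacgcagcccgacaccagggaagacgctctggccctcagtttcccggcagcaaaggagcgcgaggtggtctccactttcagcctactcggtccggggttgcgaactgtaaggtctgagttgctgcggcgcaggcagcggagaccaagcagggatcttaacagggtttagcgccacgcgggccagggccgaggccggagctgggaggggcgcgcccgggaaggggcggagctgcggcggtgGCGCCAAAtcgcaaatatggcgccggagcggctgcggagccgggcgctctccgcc
POLE, chr12:132687293-132687592, reverse strand: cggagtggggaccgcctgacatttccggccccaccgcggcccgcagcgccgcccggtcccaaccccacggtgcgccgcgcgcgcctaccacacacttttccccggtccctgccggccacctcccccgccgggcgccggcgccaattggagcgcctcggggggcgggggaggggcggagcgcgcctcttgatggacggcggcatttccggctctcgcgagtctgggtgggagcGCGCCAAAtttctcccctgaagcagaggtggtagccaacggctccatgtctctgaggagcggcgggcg
POLA1, chrX:24693668-24693967, forward strand: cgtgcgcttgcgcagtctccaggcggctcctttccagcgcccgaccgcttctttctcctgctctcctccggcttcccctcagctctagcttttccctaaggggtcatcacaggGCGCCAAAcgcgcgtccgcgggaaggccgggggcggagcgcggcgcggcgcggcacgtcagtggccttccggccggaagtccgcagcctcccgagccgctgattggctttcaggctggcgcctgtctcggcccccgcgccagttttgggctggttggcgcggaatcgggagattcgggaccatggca
POLA2, chr11:65261712-65262011, forward strand: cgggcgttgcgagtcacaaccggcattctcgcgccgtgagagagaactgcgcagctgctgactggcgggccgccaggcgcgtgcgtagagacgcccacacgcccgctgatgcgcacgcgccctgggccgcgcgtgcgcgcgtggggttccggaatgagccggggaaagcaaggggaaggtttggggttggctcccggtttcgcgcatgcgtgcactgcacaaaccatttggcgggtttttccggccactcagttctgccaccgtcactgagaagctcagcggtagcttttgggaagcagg

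In POLE2 the capitals begin 5 bases before the annotated start, in POLE 18 bases before it and in POLA1 137 bases before it. POLE2 and POLE, with these letters close to the start, were 6.72-fold and 2.22-fold lower, and POLA1 was 2.73-fold lower. Without an exact match, POLA2, PRIM1 and POLD1 were 3.64-fold, 3.08-fold and 2.12-fold lower, and PRIM2, POLD2 and POLE3 differed by less than 2-fold. Only exact matches were searched, so close variants of the letters were not counted. The POLA2 window, for example, holds tttggcgg, which differs from TTTGGCGC in the last letter. The PRIM1 window holds gttcccgc, which differs from TTTCCCGC in the first letter. Whether the letters go with the size of the difference was not tested. CCAAT was in the windows of 4 of the 9 genes (POLA1, PRIM1, POLD2 and POLE) and is held by 39.7% of all genes. In POLE it was found on both strands in overlapping letters. GGGCGG was in 6 of the 9 genes (48.3% of all genes), and TTTGAA was in 1 of the 9, in 1 of 3 windows of POLE3 (18.2% of all genes). The windows of the first and the second start of POLE3 overlap and share their GC box. Neither window of PRIM2 held any of the letters. A match is a description of the sequence, and no binding was measured.

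**Figure D4:**
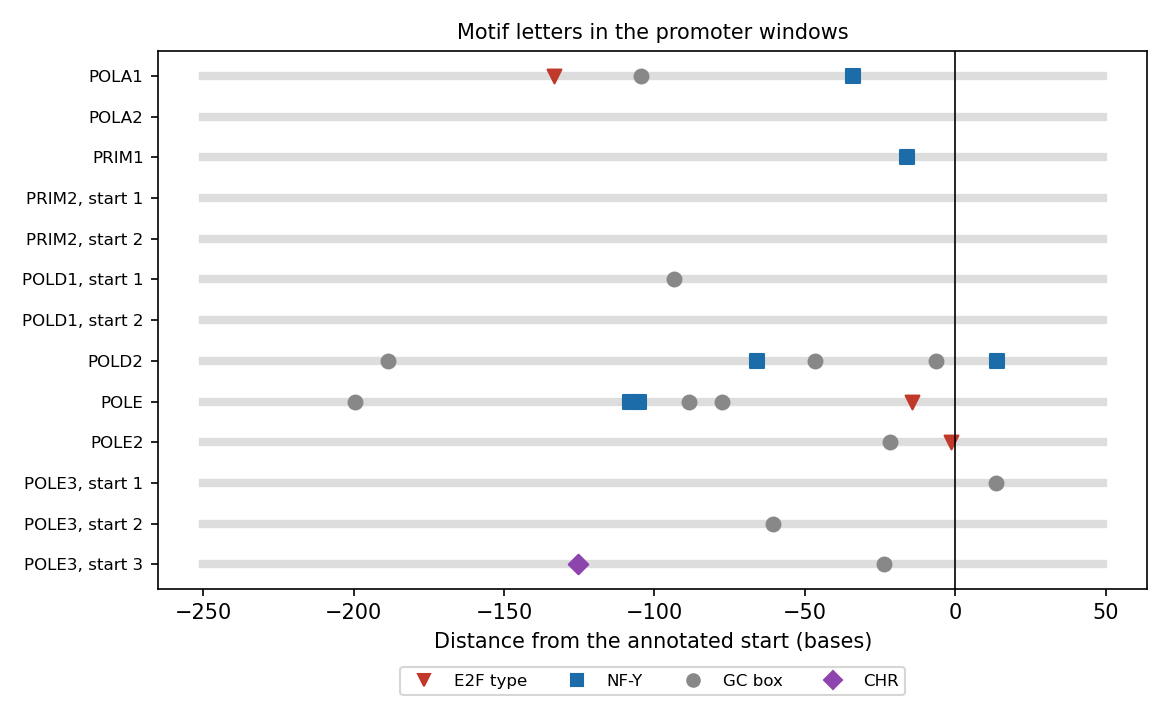
Positions of the searched letters in each promoter window, as distance in bases from the annotated start (horizontal), for 13 starts of 9 polymerase and primase genes. Triangles are TTTGGCGC, squares CCAAT, circles GGGCGG and diamonds TTTGAA, on either strand, and the triangles stand in the windows of POLA1, POLE and POLE2 alone.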

How the data were processed

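Affymetrix HG-U133 Plus 2.0 arrays held labelled total RNA of PC-3 cells, 1 array for RD and 1 for control. The authors deposited intensity values on a linear scale, which the labels' processing notes call MAS5. This method subtracts mismatch probes, so dim values are noisy, and its version and scaling target were not given. Log2 differences were computed from the values as deposited. The floor (66.9), the 75th percentile (377.4) and the 25th percentile (17.1, used as an offset) were taken over both arrays. The platform annotation gave 1 gene for 41091 probe sets, several for 1801 (not used) and none for 11721, and 19735 of 19775 genes, all 10 members among them, matched RefSeq by gene identifier. A gene was read by its probe set with the highest mean log2 value. Some listed marker genes are not reported here, and the planned protein motifs were not analysed.

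The members and gene lists were chosen with earlier results of these data known. The text names every member by each probe set, up to 2 genes at each end of every other list, the polymerase zeta subunits (chosen after their values were seen) and marker genes. No test of the treatment was possible without replicates. The alternatives were median centring, quantile normalization, the offset, values raised to the floor, the median over probe sets, probe sets without shared-sequence suffixes, another floor or none, and thresholds of 1.5-fold and 3-fold. The work used Python 3.11.15 with numpy 2.4.6, pandas 2.3.3 for tables and matplotlib 3.10.9 for figures.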

Additional observations from a re-analysis of the deposited data

How the results depend on the processing

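The log2 differences of all 10 members and the medians of the 3 complexes stayed below 0 under every scaling, offset and probe-set alternative that gave a value, and the median of the members lay between -1.16 and -1.06 where all 10 had a value. The same 6 members were lower after median centring, quantile normalization, the offset and taking the median over probe sets. In that order, 14.3%, 14.0%, 11.9% and 12.9% of all genes at or above the floor were lower in these settings. The 6 members were also lower with dim signals raised to the floor (5.94% of 19775 genes), with no floor and with a floor at the 75th percentile. These floor settings could not change a call. All 10 members had both signals at the floor or above, and their control signals reached the 75th percentile. The median over probe sets could not change the 8 members with 1 probe set. For POLA2 it was the value of the brightest probe set (-1.86). Median centring shifted every member alike, by -0.04. Over all genes, 1707 of 12818 (13.3%) were lower in the reported setting, 3566 of 19775 (18.0%) with no floor and 881 of 8094 (10.9%) with the floor at the 75th percentile. Of the 12818 genes, 3169 (24.7%) were lower at 1.5-fold and 775 (6.05%) at 3-fold. Centring moved the median of all genes to -0.05 and quantile normalization to -0.03. At 3-fold, 3 of the 10 members were lower (POLA2, PRIM1 and POLE2), beside 6.05% of all genes, and at 1.5-fold, 9 were, beside 24.7%. When probe sets with a shared-sequence suffix were left out, POLE had none. POLA2 fell back to a dim probe set at -0.51 and was no longer called. Of the 9 members with a value, 4 were lower (POLA1, PRIM1, POLD1 and POLE2), beside 13.9% of 9973 genes. The median of these 9 was -0.89, the alpha-primase median was -1.17 and the epsilon median, over POLE2 and POLE3, was -1.59. Under that setting the epsilon median was below that of alpha-primase, which turned their order round. Signal over background limits the dimmer POLA2 probe sets. Leaving out a replicate was not possible with 1 array per condition.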
